A study of Mus musculus with 6 samples.

Results

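Prostaglandin E2 (PGE2) synthesis and receptor genes were examined as a set of 10 genes in the mouse melanoma cell line D4M-3A, chosen by name out of the 43043 genes listed. The set holds the cyclooxygenase genes Ptgs1 and Ptgs2, the PGE2 synthase genes Ptges, Ptges2 and Ptges3, the gene of the degrading enzyme Hpgd, and the receptor genes Ptger1, Ptger2, Ptger3 and Ptger4. RNA was sequenced from 3 control samples (Ctrl), whose cells carried an empty CRISPR-Cas9 construct, and from 3 Nfkbiz knockout samples (Nfkbiz KO), whose cells carried a construct against Nfkbiz. Nfkbiz encodes IκBζ, a nuclear cofactor of NF-κB. Both constructs were delivered by lentivirus and the cells were selected with puromycin, and neither group received a further treatment that the labels name. Whether the knockout cells were a pool or a clone is not given in the sources used here.

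PGE2 is a lipid mediator of inflammation, pain and fever. Phospholipases release arachidonic acid from membranes, the cyclooxygenases PTGS1 (COX-1, present in many tissues at rest) and PTGS2 (COX-2, induced by inflammatory signals) convert it to prostaglandin H2, and the terminal synthases convert that to PGE2. HPGD oxidizes PGE2 to an inactive product, and the cell surface receptors EP1 to EP4, encoded by Ptger1 to Ptger4, pass its signal on, EP2 and EP4 by raising cAMP. In tumors, PGE2 made by the cancer cells is known to restrain immune cells.

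The sequences upstream of Ptges and of both cyclooxygenase genes are shown because Ptges had the largest fold change of the tested members and because Ptgs1 and Ptgs2, which act at the same step, are set beside each other. Ptgs1 was called lower in Nfkbiz KO and Ptgs2, at a far higher level, was not called. Shown are the 250 bases before the RefSeq start of the gene, taken from RefSeq on GRCm38.p6 and written 5′ to 3′ on the strand of the gene, at chr2:30903298-30903547 (minus strand) for Ptges, chr2:36230176-36230425 (plus strand) for Ptgs1 and chr1:150099781-150100030 (plus strand) for Ptgs2. By exact match to GRCm39, the RefSeq start of Ptgs1 is also the start of the gene in the GENCODE annotation. That of Ptges lies 26887 bases downstream of the outermost annotated start and 46 bases downstream of the nearest annotated transcript start, so its window lies inside the gene as annotated there, where 3 of 8 transcripts start within 100 bases of the RefSeq start. That of Ptgs2 lies 588 bases downstream of the outermost start and 294 bases downstream of the nearest. The Ptgs2 window thus also lies inside the gene as annotated there, and 0 of 3 transcripts start within 100 bases of its RefSeq start. Capitals mark matches to the motifs searched.
Ptges: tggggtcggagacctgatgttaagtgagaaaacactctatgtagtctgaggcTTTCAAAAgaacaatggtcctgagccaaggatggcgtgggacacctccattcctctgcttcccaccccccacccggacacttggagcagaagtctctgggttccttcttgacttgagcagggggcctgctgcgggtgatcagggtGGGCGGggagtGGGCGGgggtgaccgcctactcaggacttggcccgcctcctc
Ptgs1: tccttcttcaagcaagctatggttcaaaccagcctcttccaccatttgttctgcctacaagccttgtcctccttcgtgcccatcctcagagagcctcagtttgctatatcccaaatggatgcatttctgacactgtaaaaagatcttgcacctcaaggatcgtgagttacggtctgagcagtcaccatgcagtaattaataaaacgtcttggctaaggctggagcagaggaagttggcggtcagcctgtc
Ptgs2: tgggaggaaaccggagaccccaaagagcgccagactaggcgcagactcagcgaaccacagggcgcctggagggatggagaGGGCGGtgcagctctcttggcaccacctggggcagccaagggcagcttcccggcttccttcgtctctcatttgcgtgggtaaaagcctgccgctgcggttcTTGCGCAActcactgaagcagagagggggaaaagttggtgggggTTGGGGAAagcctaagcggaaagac

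Of the 10 genes, 9 had such a sequence, the exception being Ptger1. The motifs searched on both strands were C/EBP (TTNNGNAA), the cAMP response element (TGACGTCA), its core (TGACG), which also lies within the full element, AP-1 (TGANTCA), STAT (TTCNNNGAA), E-box (CACGTG), Egr1 (GCGNGGGCG), TATA box (TATAAA), GC box (GGGCGG) and NF-κB, which is given by name alone. The Ptges sequence held a C/EBP match at -198 to -191 and GC boxes at -53 and -42 relative to the RefSeq start. The Ptgs2 sequence held C/EBP matches at -69, read on both strands, and at -25, and a GC box at -170. No motif matched in the Ptgs1 sequence. Over the 9 genes, 5 had a C/EBP match (Ptges, Ptgs2, Ptges2, Ptger2 and Hpgd), compared with 36.8% of 32851 RefSeq promoters, and 6 had a GC box, compared with 32.7%. An NF-κB match was found for Ptges3 alone, at -87 and read on both strands, compared with 7.25% of promoters, and an E-box for Ptges2 alone, at -77, compared with 6.02%. The full cAMP response element and its core (1.55% and 17.8% of promoters), AP-1 (6.75%), STAT (7.02%), Egr1 (4.7%) and TATA box (12.4%) had no match in the 9 sequences. These matches describe letters in the window only.

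Between 32219900 and 44927203 reads were counted on genes per sample, so the upper limit behind a count of 0 (3 counts) was 0.0668 to 0.0931 CPM (the share of a sample's reads, scaled to 1e6), which covers counting error only. Levels are given as TPM, transcripts scaled to the same total in each sample, which the authors computed from exon reads and which can be compared between genes. Differences are log2 fold changes in Nfkbiz KO against Ctrl from edgeR's quasi-likelihood test on the reads counted per gene, with p-values adjusted by Benjamini-Hochberg over all 14419 genes tested. Counts of each pair of samples within a group, compared by chi-square over genes, gave 28.0 to 71.4 per degree of freedom within Ctrl and 3.49 to 6.24 within Nfkbiz KO, so the Ctrl samples varied more among themselves, whereas the fit estimates 1 dispersion per gene for both groups. Nfkbiz itself had 69.1, 75.2 and 63.4 TPM in Ctrl replicates 1 to 3 and 34.8, 34.7 and 35.1 TPM in Nfkbiz KO replicates 1 to 3, for a log2 fold change of -0.98 (adjusted p = 6e-08, standard error 0.056). The transcript was thus still present in every sample labelled as knockout. The study checked the knockout by immunoblot of IκBζ, and RNA levels do not measure the protein. Of the melanocyte lineage markers, Sox10 and Tyr had 0 reads in all 6 samples. The summed level of the 7 markers was 1.11 to 1.74 TPM in Ctrl and 1.27 to 1.68 TPM in Nfkbiz KO. Mitf, named like Pmel and Cd68 after its values were seen, held most of it (means of 0.951 and 0.953 TPM). Pmel had 0.437 and 0.512 TPM, and neither gene was called. The leukocyte markers Cd3e and Ms4a1 and the epithelial marker Epcam also had 0 reads. The 7 leukocyte markers summed to 1.83 to 2.52 TPM in Ctrl and 1.84 to 4.14 TPM in Nfkbiz KO. Cd68 held most of this, with means of 2.19 and 3.16 TPM (log2 fold change 0.34, adjusted p = 0.37). The 4 epithelial markers summed to 0.0405 to 0.154 TPM in Ctrl and 0.0750 to 0.107 TPM in Nfkbiz KO. The 5 endothelial markers summed to 0.536 to 0.812 TPM in Ctrl and 1.32 to 1.83 TPM in Nfkbiz KO, of which Cdh5, named after its values were seen, held most (0.548 and 1.54 TPM, log2 fold change 1.34, adjusted p = 0.0023), while Tie1 had 0 reads in all samples and Pecam1 at most 0.134 TPM. Kdr had 2 reads in the Ctrl samples together and 11 in the Nfkbiz KO samples, and Vwf had 2 and 8, both too low to be tested. The part of these markers in the results below was not tested.

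The PGE2 genes spanned a wide range of levels, from Ptges3 at a mean of 477 TPM over the 6 samples to Hpgd and Ptger3 at 0. Ptgs2 came next with 370.0 TPM, followed by Ptgs1 with 44.0, Ptges2 with 16.7, Ptges with 2.56, Ptger4 with 0.667, Ptger1 with 0.547 and Ptger2 with 0.0685 TPM. Each of the first 5 levels was clear of the next below it in all 6 samples except that Ptges3 and Ptgs2 overlapped (419 to 519 and 317 to 426 TPM), and Ptger1 overlapped both Ptger4 and Ptger2. Ptges3 and Ptgs2 stood at the 98.8 and 98.4 percentiles of the genes with reads, and Ptges at the 53.8 percentile.

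**Figure D1:**
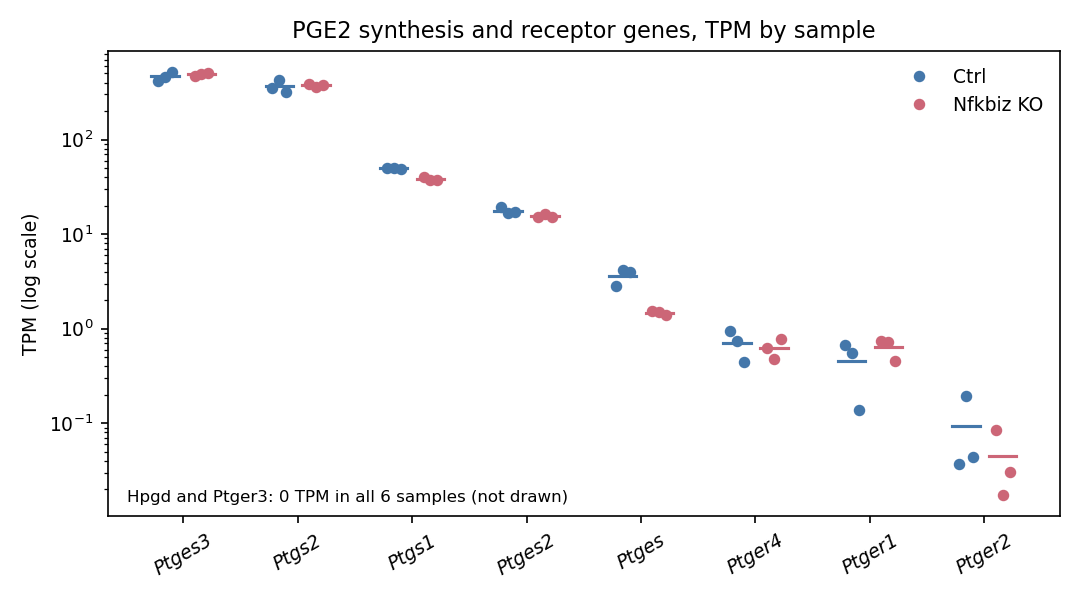
TPM (log axis) of each PGE2 gene in the 3 Ctrl samples (blue) and the 3 Nfkbiz KO samples (red), with bars at the group means. The groups are apart for Ptgs1, Ptges2 and Ptges, with the Nfkbiz KO samples of Ptges at 1.41 to 1.53 TPM against 2.82 to 4.15 TPM in Ctrl, and overlap for Ptges3, Ptgs2 and the receptors.

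Of the 10 genes, 7 passed the filter on low counts and were tested. Among them 3 were lower in Nfkbiz KO (Ptges, Ptgs1 and Ptges2), 0 were higher, and 4 did not pass (Ptgs2, Ptges3, Ptger1 and Ptger4). At an unadjusted p under 0.05, 0 were higher as well, and DESeq2 also called 3. This is 42.9% of the tested members, beside 36.6% of all genes tested that passed in either direction, 18.2% that were higher and 18.4% that were lower. Of all calls, 49.8% were thus higher in Nfkbiz KO, but 69.4% on log2(TPM + 1) and 69.7% on log2(TPM + 0.1) in limma. The median log2 fold change was -0.06 over the 7 genes and -0.02 over all genes tested. At a fold change above 2, Ptges alone was left, beside 5.92% of all genes in either direction and 3.36% that were lower. At an adjusted p of up to 0.1 with a fold change from 1.5 upwards, Ptges was again alone, beside 12.6% of all genes. With the further cut-off of the study's methods, an absolute difference above 4 taken as TPM, 0 members were left, beside 1.79% of all genes, since the group means of Ptges differed by -2.16 TPM. The same 3 genes had samples that did not overlap between the groups in normalized CPM, beside 48.4% of all genes in either direction and 24.5% lower in Nfkbiz KO. In these bulk samples, fewer cells that make a transcript and less of it per cell cannot be told apart.

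**Figure D2:**
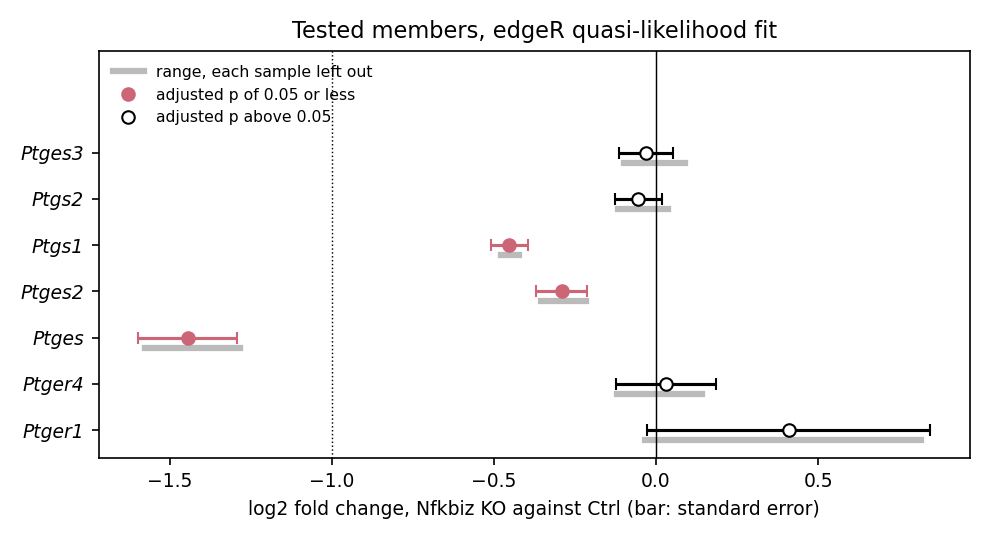
Log2 fold change (Nfkbiz KO against Ctrl) of the 7 tested PGE2 genes with its standard error, filled where the adjusted p was 0.05 or less, and in grey the range when each sample was left out in turn. Ptges lies past the dotted line of a 2-fold decrease with every sample left out (-1.58 to -1.28), Ptgs1 lies between -0.48 and -0.42, and the ranges of Ptgs2, Ptges3, Ptger4 and Ptger1 include 0.

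The first step of prostaglandin synthesis was represented by both cyclooxygenase genes. Ptgs2 (chromosome 1 of GRCm39, 149975194 to 149983978, plus strand) had 353, 426 and 317 TPM in Ctrl replicates 1 to 3 and 385, 358 and 380 TPM in Nfkbiz KO replicates 1 to 3. The 3 Nfkbiz KO values lay within the range of the Ctrl values, and the Ctrl samples varied more (standard deviation 55.8 and 14.3 TPM). The log2 fold change was -0.06 (adjusted p = 0.59, standard error 0.072), and its sign depended on the samples, reaching 0.04 without Ctrl replicate 2. With 16039 to 22299 reads per sample, no difference of Ptgs2 beyond the spread between samples was detected. In annotated exons lay 98.6% to 98.9% of its reads.

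Ptgs1 (chromosome 2, 36120438 to 36142287, plus strand) had 49.9, 49.7 and 49.2 TPM in Ctrl against 39.9, 37.5 and 37.6 TPM in Nfkbiz KO. All Nfkbiz KO samples were below all Ctrl samples, which differed from one another by less than 1 TPM. The means were 49.6 ± 0.369 and 38.3 ± 1.39 TPM (SD, n = 3 each), and Ptgs1 fell by 0.45 on the log2 scale (adjusted p = 5.7e-05, standard error 0.057), 1.37-fold. Ptgs2 exceeded Ptgs1 in every sample, by 7.06, 8.59 and 6.44 times in Ctrl and by 9.65, 9.56 and 10.1 times in Nfkbiz KO on the TPM scale. This ratio did not overlap between the groups (exact permutation test, two-sided p = 0.1, the smallest that 3 samples against 3 allow). It holds the Ptgs1 values given above and is not a separate result.

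The terminal synthases act on the product of the cyclooxygenases. PTGES is the microsomal synthase that inflammatory signals induce together with COX-2. Ptges (chromosome 2, 30779483 to 30820196, minus strand) had 2.82, 4.15 and 3.95 TPM in Ctrl against 1.53, 1.49 and 1.41 TPM in Nfkbiz KO, which is the largest fold difference among the tested members. Every Nfkbiz KO sample was below the lowest Ctrl sample, and Ctrl replicate 1 was the lowest of its group. The means were 3.64 ± 0.715 and 1.48 ± 0.06 TPM (SD, n = 3 each). The log2 fold change was -1.44 (adjusted p = 1.2e-05, standard error 0.15), a 2.72-fold decrease, and 1.73% of all genes tested had a lower log2 fold change. The reads behind these values numbered 247, 409 and 374 in Ctrl against 113, 119 and 152 in Nfkbiz KO, so that Ptges was measured with far fewer reads than the cyclooxygenases.

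About as many Ptges reads lay outside annotated exons as within them, and the decrease was present in both. The exon reads, recovered as whole numbers from the deposited RPKM values, were 114, 176 and 205 in Ctrl against 54, 65 and 70 in Nfkbiz KO. The reads elsewhere in the gene were 133, 233 and 169 in Ctrl against 59, 54 and 82 in Nfkbiz KO. The groups were apart in either class. In a test added after seeing the data, the log2 fold change was -1.40 for exon reads (adjusted p = 7.5e-05) and -1.48 for the other reads (adjusted p = 0.00016). Both come from edgeR fits over all genes. Only the members and Nfkbiz were given these reads there, while every other gene kept its total reads. For Ptgs1, 90.9% to 92.4% of reads lay in exons. Its log2 fold change was -0.47 for exon reads (adjusted p = 4.7e-05) and -0.27 for its 128 to 209 other reads per sample (adjusted p = 0.12). The difference between the 2 classes of reads was not tested for either gene. For Nfkbiz, exon reads had a log2 fold change of -1.08 (adjusted p = 1.8e-08) and the 278 to 401 other reads one of -0.11 (adjusted p = 0.57). A lncRNA on the opposite strand, Gm74745, shares 1907 bases with Ptges in the annotation, and a pseudogene on its strand, Gm13400, shares 380 bases. Neither is listed in the tables, and reads were counted from both strands, so reads of these transcripts cannot be told apart from reads of Ptges.

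**Figure D3:**
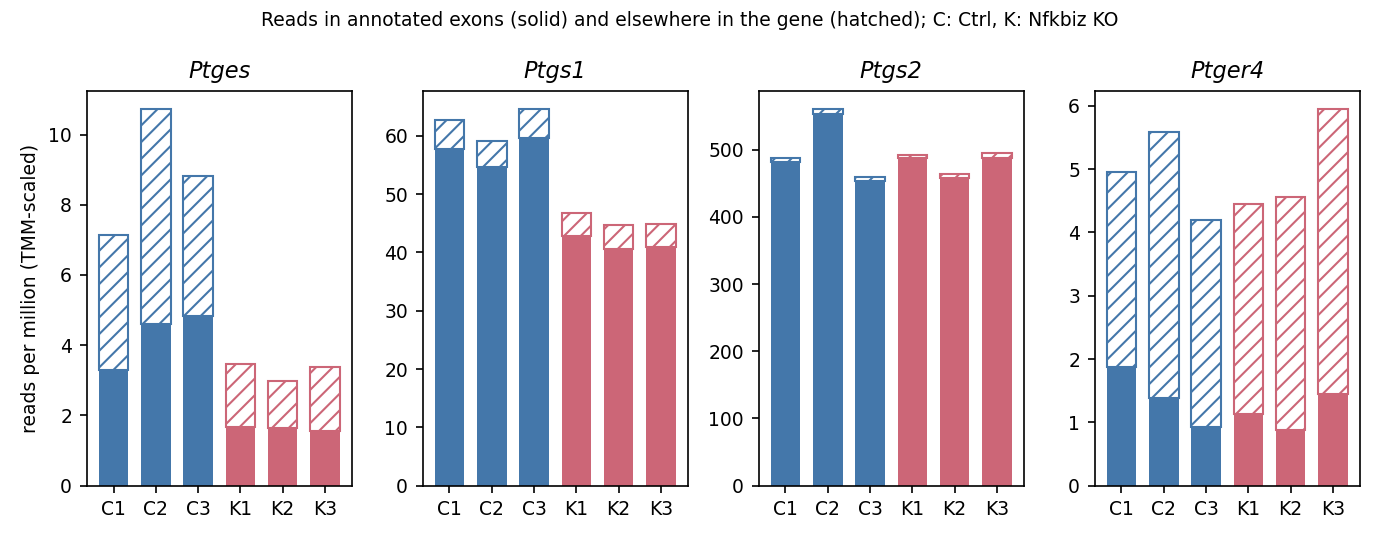
CPM, scaled by TMM, in annotated exons (solid) and elsewhere in the gene (hatched) for Ptges, Ptgs1, Ptgs2 and Ptger4 in each Ctrl (C1 to C3) and Nfkbiz KO (K1 to K3) sample. Both parts of the Ptges bars are shorter in Nfkbiz KO, Ptgs1 and Ptgs2 are almost all exonic, and most Ptger4 reads lie outside exons (19.2% to 38.0% within them).

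PTGES2 is a second membrane-associated PGE2 synthase. Ptges2 (chromosome 2, 32285659 to 32295786, plus strand) had 19.6, 16.8 and 16.9 TPM in Ctrl against 15.2, 16.4 and 15.2 TPM in Nfkbiz KO. The groups did not overlap, but Nfkbiz KO replicate 2 was close to the 2 lower Ctrl samples. Ptges2 fell by 0.29 on the log2 scale (adjusted p = 0.012, standard error 0.079), and its call rested on single samples: without Ctrl replicate 1 the log2 fold change was -0.22 (adjusted p = 0.058), without Nfkbiz KO replicate 1 it was -0.27 (adjusted p = 0.061), and without Nfkbiz KO replicate 3 it was -0.28 (adjusted p = 0.053). On the log2(TPM + 1) scale in limma it was -0.17 (adjusted p = 0.14).

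PTGES3 is the cytosolic PGE2 synthase and is also known as p23, a cochaperone of HSP90. Ptges3 (chromosome 10, 127894816 to 127913141, plus strand) had 419, 457 and 519 TPM in Ctrl against 467, 497 and 502 TPM in Nfkbiz KO. The Nfkbiz KO values lay within the Ctrl range. The log2 fold change was -0.03 (adjusted p = 0.81, standard error 0.084), and the mean TPM, in contrast, was higher in Nfkbiz KO (489 ± 18.8) than in Ctrl (465 ± 50.4, SD, n = 3 each).

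Ratios between these transcripts were taken within each sample on the TPM scale. Ptges2 exceeded Ptges by 6.95, 4.04 and 4.29 times in Ctrl and by 9.93, 11.1 and 10.8 times in Nfkbiz KO. Ptgs2 exceeded Ptges by 125, 103 and 80.3 times in Ctrl and by 252, 241 and 270 times in Nfkbiz KO. Neither ratio overlapped between the groups (exact permutation test, two-sided p = 0.1 for each, the smallest possible), whereas the ratio of Ptges3 to Ptgs2 did, at 1.19, 1.07 and 1.64 in Ctrl against 1.21, 1.39 and 1.32 in Nfkbiz KO (p = 0.9). Such a ratio shows unequal change only. The ratios to Ptges hold the Ptges values given above and are not separate results.

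Hpgd (chromosome 8, 56747543 to 56774082, plus strand), whose product inactivates PGE2, had 0 reads in all 6 samples and was not tested. No transcript of the degrading enzyme was thus detectable at this depth in either group.

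The receptors were at the low end of the set. The summed level of Ptger1 to Ptger4 was 1.66, 1.49 and 0.626 TPM in Ctrl against 1.44, 1.22 and 1.25 TPM in Nfkbiz KO. The Nfkbiz KO sums lay within the Ctrl range, and Ctrl replicate 3 was the lowest sample. Ptger4 (chromosome 15, 5236142 to 5273673, minus strand), the gene of the cAMP-raising receptor EP4, had 0.950, 0.738 and 0.444 TPM in Ctrl against 0.619, 0.474 and 0.774 TPM in Nfkbiz KO. Its log2 fold change was 0.03 (adjusted p = 0.90, standard error 0.15) on 145 to 268 reads per sample. Exon reads numbered 65, 53 and 39 in Ctrl against 37, 35 and 65 in Nfkbiz KO, so most reads lay elsewhere in the gene. The deposited values also allow numbers larger by a factor of 2, but these would imply an exon length of 14139 bases, compared with 7069 for the numbers used and 6653 in the annotation. With exon reads alone, the log2 fold change of Ptger4 was -0.26 (adjusted p = 0.54). Ttc33 on the opposite strand shares 15661 bases with Ptger4 and had 463 to 772 reads per sample.

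Ptger1 (chromosome 8, 84393264 to 84399384, plus strand), the gene of the calcium-mobilizing receptor EP1, had 0.677, 0.560 and 0.139 TPM in Ctrl against 0.734, 0.725 and 0.450 TPM in Nfkbiz KO. The groups overlapped, and Ctrl replicate 3 was far below the other 5 samples. The log2 fold change was 0.41 (adjusted p = 0.51, standard error 0.44) and turned to -0.03 without Ctrl replicate 3. Of the 10 to 44 reads per sample assigned to Ptger1, 50% mapped uniquely over all samples. Its level is therefore uncertain.

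Ptger2, the gene of the other cAMP-raising receptor EP2, had 2, 11 and 4 reads in Ctrl and 6, 1 and 2 reads in Nfkbiz KO. Ptger3, the gene of EP3, had 1, 0 and 2 reads in Ctrl against 0, 1 and 0 in Nfkbiz KO, none of them in exons. Both were too low to be tested. Among the genes that overlap Ptger2 on the opposite strand, the lncRNA Gm49364 had 25, 37 and 18 reads in Ctrl against 4, 4 and 10 in Nfkbiz KO, giving a log2 fold change of -2.18 (adjusted p = 0.0028), although 66.3% of its reads were unique.

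Ptgs2os, a lncRNA on the opposite strand that shares 521 bases with Ptgs2, fell from 5.05 ± 0.880 to 3.70 ± 0.292 TPM (SD, n = 3 each). Its reads numbered 349, 460 and 422 in Ctrl against 271, 322 and 390 in Nfkbiz KO. Its log2 fold change was -0.36 (adjusted p = 0.015), while Ptgs2 itself was not called. With each sample left out, the adjusted p of Ptgs2os was between 0.0075 and 0.061. Among other transcripts that the annotation places over a member, Gm43621 (Ptgs1) and Gm45540 (Hpgd) had 0 reads, Gm47438 (Ptges3) had 2 reads in all, Gm17173 (Ptger2) had 11 to 28 reads per sample with a log2 fold change of -0.52 (adjusted p = 0.30), and Gm15937 (Ptger4) is not listed in the tables.

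Genes upstream of the cyclooxygenases release arachidonic acid or return it to membranes. Of the 20 phospholipase and recycling genes listed, 8 were tested, of which 2 rose, 2 fell and 4 did not pass. This is 50% passing, beside 36.6% of all genes tested (18.2% higher and 18.4% lower), with a median log2 fold change of -0.01 compared with -0.02 for all genes. Pla2g4a, the cytosolic phospholipase A2 that supplies the cyclooxygenases, was the most abundant at 77.3 ± 7.81 TPM in Ctrl against 88.3 ± 2.50 TPM in Nfkbiz KO (n = 3 each, with SD). For Pla2g4a the log2 fold change was 0.09 (adjusted p = 0.24), and 0.16 without Ctrl replicate 2 (adjusted p = 0.034). The 4 genes that passed are named here after their values were seen. Pla2g4c, another cytosolic phospholipase gene, rose from 0.691 to 1.54 TPM (log2 fold change 0.88, adjusted p = 0.0051) and Acsl4, which activates arachidonic acid to its CoA ester, from 68.5 to 83.8 TPM (0.20, adjusted p = 0.015, and up to 0.069 with single samples left out). Pla2g6, a calcium-independent phospholipase gene, fell from 14.0 to 10.1 TPM (-0.52, adjusted p = 6.6e-05) and Lpcat3, which esterifies arachidonic acid into phospholipids, from 47.2 to 37.8 TPM (-0.42, adjusted p = 0.00012).

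In edgeR, the synthases of the other prostanoids gave 0 calls among 5 tested genes of 8 listed, beside 36.6% of all genes tested. Their median log2 fold change was 0.03. At an unadjusted p under 0.05 the count was also 0, and DESeq2 called 0. Akr1b3, an aldo-keto reductase gene, was the most abundant at 54.8 TPM in Ctrl against 53.8 TPM in Nfkbiz KO (log2 fold change -0.12, unadjusted p = 0.054), and it was called without Ctrl replicate 2 (-0.16, adjusted p = 0.034). Of the 13 genes of the lipoxygenase branch, which turns arachidonic acid into leukotrienes, Lta4h alone was tested, at 48.2 TPM in Ctrl against 51.9 TPM in Nfkbiz KO (log2 fold change 0.02, adjusted p = 0.85). Alox15, Alox12b, Alox8 and Cysltr1 had 0 reads in all samples.

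Among receptors of other prostanoids, 2 of 4 tested genes of 6 listed rose and 0 fell (1 at an unadjusted p under 0.05, Ptgfrn), beside 18.2% of all genes tested that were higher, and the median log2 fold change was 0.42. Ptgfr, which encodes the receptor of prostaglandin F2α, had 0.258, 0.464 and 0.223 TPM in Ctrl against 1.07, 0.955 and 1.03 TPM in Nfkbiz KO. All Nfkbiz KO samples were above all Ctrl samples. The log2 fold change was 1.57 (adjusted p = 0.00049, standard error 0.26) on 75 reads in the 3 Ctrl samples together and 229 in the 3 Nfkbiz KO samples. Ptgir, the prostacyclin receptor gene, named after its values were seen, had a log2 fold change of 0.74 (adjusted p = 0.045) with overlapping TPM values. It was not called in DESeq2 (adjusted p = 0.054), in limma on TPM, with the replicate block (adjusted p = 0.056) or without any one of the samples other than Nfkbiz KO replicate 3 (adjusted p up to 0.21). Ptgfrn, which encodes a protein that binds the prostaglandin F receptor, was the most abundant of the list at 24.9 TPM in Ctrl against 23.99 TPM in Nfkbiz KO (log2 fold change -0.15, adjusted p = 0.079), and it was called without Ctrl replicate 3 (-0.21, adjusted p = 0.0067).

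All 6 genes of prostaglandin transport and reduction were tested, of which 1 rose and 2 fell, or 50% beside 36.6% of all genes tested, with a median log2 fold change of -0.04. These 3 are named after their values were seen. Abcc4, an exporter of prostaglandins, rose from 16.9 ± 3.13 to 24.5 ± 0.0713 TPM (log2 fold change 0.45, adjusted p = 0.0011). Slco2a1, the prostaglandin uptake carrier, fell from 0.907 ± 0.0131 to 0.681 ± 0.0662 TPM (-0.53, adjusted p = 0.015, and 0.064 without Nfkbiz KO replicate 1). Ptgr1, a reductase that acts on oxidized prostaglandins and leukotriene B4, fell from 44.5 ± 5.46 to 30.3 ± 2.10 TPM (-0.64, adjusted p = 0.00013, each SD with n = 3). Zadh2, another prostaglandin reductase gene and the most abundant of the list, had 58.2 TPM in Ctrl against 61.3 TPM in Nfkbiz KO (-0.01, adjusted p = 0.95).

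**Figure D4:**
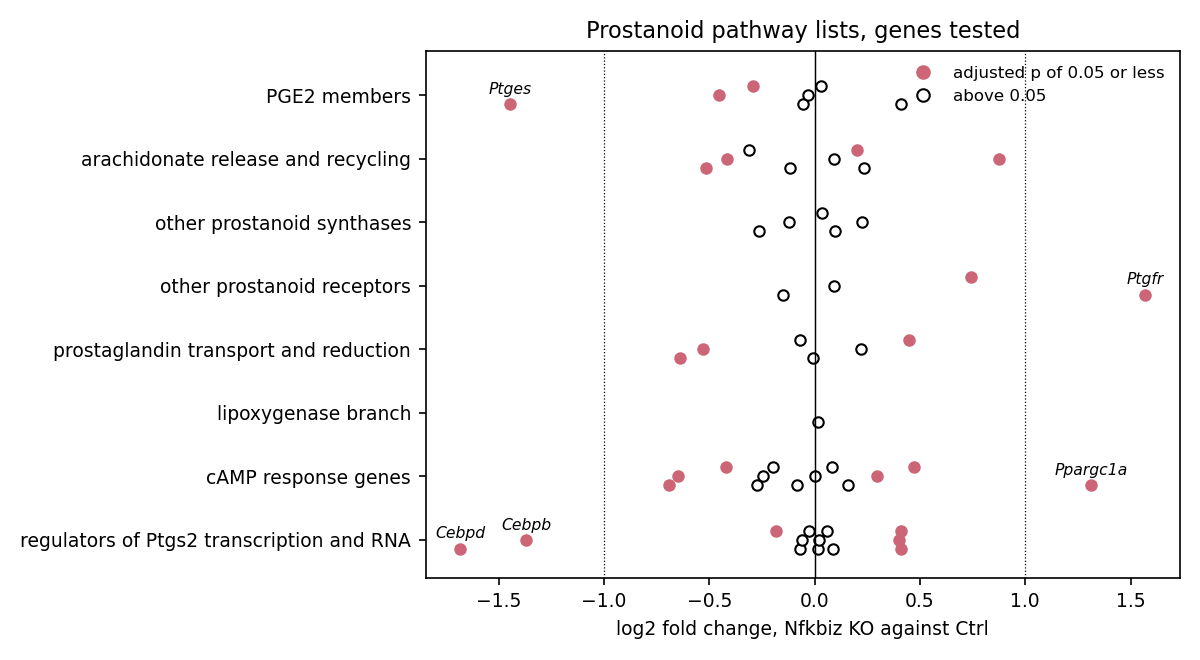
Log2 fold change (Nfkbiz KO against Ctrl) of each tested gene of the PGE2 set and of 7 related lists, filled where the adjusted p was 0.05 or less, with names for those past a 2-fold change (dotted lines). Calls lie on both sides of 0 in 4 of the 7 related lists, and Ptges, Cebpd and Cebpb lie past the line of a 2-fold decrease.

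Of 14 listed genes that respond to cAMP, the second messenger of EP2 and EP4, 13 were tested. In Nfkbiz KO, 3 were higher (Ppargc1a, Fosb and Dusp1), 3 were lower (Areg, Sik1 and Pde4b) and 7 did not pass. The share that passed was 46.2%, beside 36.6% of all genes tested, with a median log2 fold change of -0.08. The call of Dusp1, a phosphatase gene, rested on Nfkbiz KO replicates 2 and 3 (adjusted p = 0.024, and 0.075 and 0.11 without each). Except for Ppargc1a and Areg, these genes are named after their values were seen. Ppargc1a, a transcriptional coactivator of mitochondrial genes, had 0.295, 0.197 and 0.264 TPM in Ctrl against 0.979, 0.6004 and 0.697 TPM in Nfkbiz KO (log2 fold change 1.31, adjusted p = 0.0053). Areg, an EGF receptor ligand and the most abundant of the list, fell from 265 ± 16.4 to 216 ± 4.30 TPM (SD, n = 3 each; log2 fold change -0.42, adjusted p = 0.00039).

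Among 13 genes whose products act on Ptgs2 transcription or on its RNA, all tested, 3 were higher (Jun, Egr1 and Zfp36), 3 were lower (Cebpb, Cebpd and Nfkb1) and 7 did not pass, which is 46.2% passing, beside 36.6% of all genes tested. Cebpb and Cebpd encode C/EBP transcription factors. Cebpb had 353, 258 and 366 TPM in Ctrl against 138, 151 and 118 TPM in Nfkbiz KO (log2 fold change -1.37, adjusted p = 7.3e-06), and Cebpd had 226, 177 and 205 TPM in Ctrl against 71.2, 72.2 and 59.5 TPM in Nfkbiz KO (-1.68, adjusted p = 1.1e-07). In Ctrl, replicate 2 was the lowest sample for both of these and the highest for Ptges. Across the groups, Ptges was lower in Nfkbiz KO like both of them. A relation between these genes and Ptges was not tested. Jun, an AP-1 subunit and the most abundant of the list over all samples, rose from 219 ± 11.6 to 311 ± 21.5 TPM (SD, n = 3 each; log2 fold change 0.41, adjusted p = 0.00048). Over the list the median log2 fold change was 0.02. Nfkb1, an NF-κB subunit gene named after its values were seen like Egr1 and Zfp36, had a log2 fold change of -0.18 (adjusted p = 0.023), which was not called in limma on TPM (-0.07 and -0.06) or without any one of the samples other than Ctrl replicate 3 (adjusted p up to 0.11).

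Over the 6 samples, the genes with a mean of at least 10 TPM whose log2 CPM followed Ptges most closely, by Pearson's r among 8300 genes, were Mkx (0.996), Il6 (0.996), Scamp1 (0.996), Tnfaip8 (0.995) and Foxp1 (0.994). Their log2 fold changes were -0.66, -1.28, -0.42, -0.49 and -0.19. For Ptgs2 they were Trerf1 (0.985), Trp53inp1 (0.983), Platr16 (0.977), Creb1 (0.971) and Ro60 (0.970), with log2 fold changes between -0.11 and -0.03. For Ptges the points share the difference between the groups, and for Ptgs2 mainly the spread among the Ctrl samples, so these values describe likeness in 6 samples and carry no p.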

How the data were processed

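RNA of 3 Ctrl and 3 Nfkbiz KO samples of D4M-3A cells was analysed. Replicates were independent experiments according to the study. Each group carried its own construct, so other differences between the cells derived with each cannot be told apart from loss of Nfkbiz. Mapping was done by the authors in CLC Genomics Workbench, which counted reads of both strands, and they deposited raw counts of total and unique reads per gene, with TPM and RPKM from exons (decimal commas were converted). The study's methods name GRCm39 and the submitters' processing notes GRCm38. Gene positions come from a GRCm39 annotation matched by symbol, promoters from RefSeq on GRCm38.p6.

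Total gene reads were normalized by TMM and tested with edgeR 4.0.16 (R 4.3.3) after filterByExpr at its defaults (minimum count 10, minimum total count 15), with Benjamini-Hochberg adjustment. A call is an adjusted p of 0.05 or less. Alternatives used DESeq2 1.42.0, limma 3.58.1 on log2(TPM + 1) and log2(TPM + 0.1), RLE factors, other filters, unique reads, a replicate block and each sample left out. Exon reads were recovered from RPKM as whole numbers, within a tolerance of 0.02. In simulated counts of 14258 genes, 90.8% of 98 genes changed 2-fold and 100.0% of 96 changed 4-fold were recovered, with 12 false calls. These counts were drawn with a common dispersion for all genes and both groups, unlike the data, where Ctrl samples varied more. The figures therefore do not give the recovery or false calls of the data.

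The rule for named genes takes all 10 members, Nfkbiz, genes overlapping a member, list genes past 2-fold or most abundant in their list, and the 5 genes most like Ptgs2 and Ptges. Of these, 1 is not reported here. Others are named after their values were seen. The members and lists were chosen with earlier results of these data known.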

Additional observations from a re-analysis of the deposited data

How the results depend on the processing

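The decrease of Ptges kept its direction and its call in all 17 alternatives, and that of Ptgs1 in 16. Ptges ranged from -1.58 to -1.28 and Ptgs1 from -0.48 to -0.42 on the log2 scale with each sample left out, and Nfkbiz from -1.01 to -0.93. In limma, Ptges was at -0.89 on log2(TPM + 1), short of a 2-fold decrease, and at -1.23 on log2(TPM + 0.1). Reads outside exons alone gave -0.27 for Ptgs1, -0.79 for Ptges2 (adjusted p = 0.098) and -0.11 for Nfkbiz, none of them past the threshold, and left 1 member called instead of 3. Such reads numbered 128 to 209 per sample for Ptgs1, 9 to 24 for Ptges2 and 278 to 401 for Nfkbiz. Ptges, which kept its call, had 54 to 233. Whether the number of reads has a part in the lost calls was not tested. Leaving out samples gave 2 or 3 members, and -0.35 to -0.22 for Ptges2, which also lost its call in limma on log2(TPM + 1) (-0.17) and log2(TPM + 0.1) (-0.18). At the study's thresholds, 0 members became 1 (Ptges) without the difference cut-off, 1 with a fold change from 1.5 upwards and an adjusted p of up to 0.1, and stayed 0 with each sample left out.

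Signs of members that were not called changed. Ptger1 ranged from -0.035 (log2 fold change without Ctrl replicate 3) to 0.82 with samples left out, Ptger4 from -0.12 to 0.14, Ptges3 from -0.10 to 0.090 and Ptgs2 from -0.12 to 0.038 (without Ctrl replicate 2). Without Ctrl replicate 3, Ptger4 was at -0.073 and Ptges3 at 0.090, and Ptges3 was at 0.0062 without Nfkbiz KO replicate 1. Ptger4 turned to -0.26 with exon reads, -0.070 on log2(TPM + 1) and -0.14 on log2(TPM + 0.1). Ptges3 turned to 0.076 and Ptgs2 to 0.046 on both TPM scales. On these scales 69.4% and 69.7% of all calls were higher in Nfkbiz KO, compared with 49.8% in the edgeR fit, and the median of all genes moved from -0.02 to 0.06 and 0.08. The cause was not tested. Among other prostanoid receptors, 1 gene was called instead of 2 with DESeq2, on both TPM scales and with the replicate block, and 1 or 2 with samples left out. For other prostanoid synthases, leaving out Ctrl replicate 2 gave 1 call, and the other samples 0.

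The shared replicate numbers gave no sign of pairing, since deviations of same-numbered samples had correlations of 0.037, -0.023 and 0.026 across genes. With the replicate block, Ptges was at -1.43, Ptgs1 at -0.45, Ptges2 at -0.29 (adjusted p = 0.015) and Nfkbiz at -0.98, and 3 members were called. Precision was limited by depth for Ptger1, Ptger2, Ptger3 and Hpgd, and by 3 samples per group throughout.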
